A study of Mus musculus with 20 samples.

Results

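Embryonic stem cells (ESC) homozygous for the tm1a allele of Mysm1 were compared with wild-type ESC on Illumina bead arrays of 45281 probes. The comparison took the 3 arrays labelled homozygous (hom) and the 3 labelled wild type (wt), 6 of the 20 samples of the series, which also held 3 heterozygous (het) ESC arrays and 11 arrays of embryonic fibroblasts (MEF; 3 hom, 4 het and 4 wt). Hom cells were labelled Mysm1tma1/tm1a, het cells Mysm1+/tm1a and wt cells carried no targeted allele; all were mouse ESC of the C57BL/6 background with no treatment named. The 3 samples of a genotype were separate passages, and the number of cell lines behind them was not stated, so p-values measure the spread between these samples, which may be technical. A tm1a allele is a gene trap placed in an intron that is spliced into the transcript and interrupts it, with the promoter left in place. Where the Mysm1 probe lies relative to the trap was not examined here.

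MYSM1 is a metalloprotease that removes ubiquitin from histone H2A, a mark laid down by the Polycomb repressive complex PRC1 and tied to gene silencing. In mice its loss is known above all for defects of blood stem cells and lymphocytes. ESC depend on a network of naive pluripotency factors, and they pass to a primed state when factors of the later epiblast take over. Plac8, which encodes a small cysteine-rich protein, and Kit, which encodes the receptor of stem cell factor, were the marker genes chosen for this comparison.

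On the 9 ESC arrays the median raw signal was 54.1 to 59.8, the share of detected probes 29.3 to 31.5%, and each probe was read on 45.1 to 45.5 beads on average, so the number of arrays limits the precision. All 9 ESC identity markers chosen (Pou5f1, Sox2, Nanog, Zfp42, Esrrb, Klf4, Tdgf1, Dppa5a and Utf1) were detected on every ESC array, with a summed linear intensity of 32385 to 37586 in hom and 33451 to 38964 in wt. Markers of primitive streak (Mixl1, Eomes), trophoblast (Cdx2, Elf5, Hand1) and the 2-cell-like state (Zscan4c, Tcstv1, Zfp352) were detected on none of them. Gata4 and Sox17 of primitive endoderm and Ptprc and Tyrobp of macrophages were not detected either. Of the same panels, Dab2 of primitive endoderm was detected on all 9 ESC arrays, Sox7 and Pdgfra on 4 each and Gata6 on 3. Csf1r of macrophages was detected on 1. Of 9 feeder fibroblast markers 7 were detected on some array (not Col3a1 and Postn), with a summed intensity of 531 to 2220 in hom and 422 to 1961 in wt. Thy1, a surface protein of fibroblasts, had log2 intensities of 8.18, 10.23 and 7.91 in hom 1 to 3, against 8.40, 10.03 and 7.47 in wt 1 to 3, so the library numbered 2 was the highest in both groups. All wt arrays and het 1 lay on one slide and all hom arrays, het 2 and het 3 on another, so slide and genotype cannot be told apart between hom and wt except through the het arrays.

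Mysm1 itself was read by 1 of its 4 probes (ILMN_3119954), the others not being above background. Its log2 intensity was 6.47, 5.42 and 4.81 in hom 1, hom 2 and hom 3 and 4.45, 6.68 and 6.67 in het 1, het 2 and het 3, against 7.69, 7.48 and 7.64 in wt 1, wt 2 and wt 3. All hom libraries lay below all wt libraries, but the library labelled hom 1 was the least reduced and hom 3 was not above background. The library labelled het 1 was also not above background, so it cannot be ranked against hom 3, but it lay below hom 1 and hom 2. The library labelled hom 1 stood close to het 2 and het 3. These labels are therefore in doubt, and results are given with and without the library labelled hom 1. Hom against wt gave −2.04 ± 0.508 (SE) on the log2 scale, 24.3% of the wt level (limma with the replicate number as a block, adjusted p = 0.0460, n = 3 each). Leaving out the library labelled hom 1 gave −2.84 ± 0.417, or 13.9% of wt (limma adjusted p = 0.00828). That value lay beyond both remaining pairs (−2.06 in pair 2 and −2.83 in pair 3). The fit kept the library labelled het 1 in the block of number 1, so this doubtful library enters the estimate. With hom 1 and het 1 both left out Mysm1 differed by −2.46 ± 0.181. Other results without hom 1 also kept het 1 unless stated. The exact two-sided permutation p over the 6 arrays was 0.1 for Mysm1, Plac8 and Kit alike, the smallest that 3 against 3 arrays can give. That test ignored the replicate pairs. Every probe whose groups did not overlap, 18.9% of all probes tested, reaches the same value, so it does not set these genes apart. For Mysm1 the limma call is lost without the block (adjusted p = 0.297) and without hom 2 (0.215), hom 3 (0.188), het 2 (0.0549) or any 1 of the wt arrays (0.117 to 0.157).

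Plac8 rose and Kit fell in hom ESC. Plac8 had log2 intensities of 8.44, 9.02 and 9.12 in hom and 8.25, 8.36 and 8.50 in het, against 7.55, 7.64 and 8.12 in wt. Hom and wt did not overlap, and the het libraries lay above all wt libraries. The difference between hom and wt was 1.09 ± 0.125, a 2.13-fold rise (limma adjusted p = 0.00535), and 1.21 ± 0.133 without the library labelled hom 1 (adjusted p = 0.00416). Kit had 7.09, 7.09 and 6.78 in hom and 7.53, 7.21 and 7.51 in het, against 7.93, 7.88 and 8.03 in wt. Again hom and wt did not overlap and the het libraries lay between them. Kit differed by −0.96 ± 0.133, a 1.94-fold fall (limma adjusted p = 0.00906), and by −0.99 ± 0.159 without the library labelled hom 1 (adjusted p = 0.0116). The plot of these 3 genes shows the libraries singly.

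**Figure D1:**
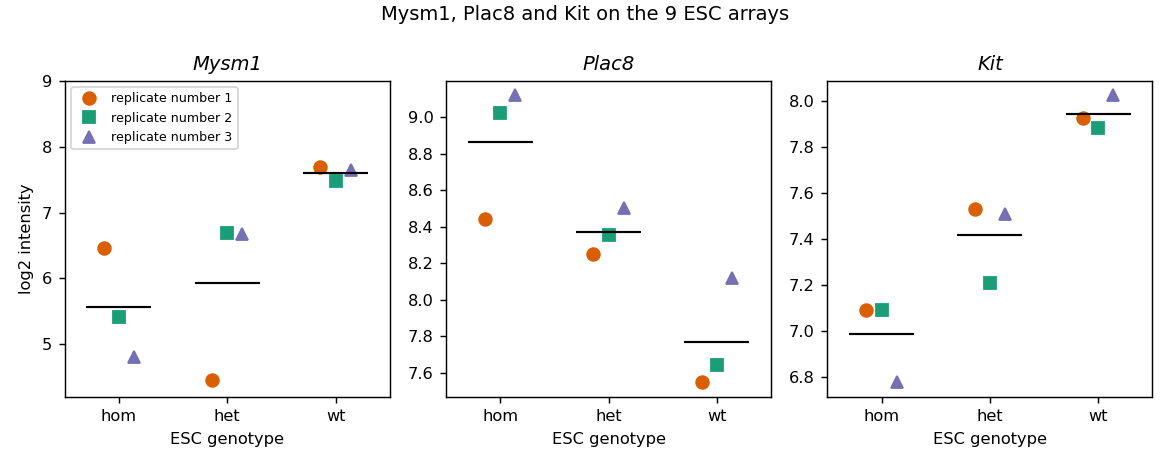
Log2 intensity of Mysm1, Plac8 and Kit (vertical axis, normalized arrays) on the 9 ESC arrays by labelled genotype, hom left, then het and wt; points are single libraries with their replicate number and bars are group means. The library labelled hom 1 stands at 6.47 for Mysm1 and the library labelled het 1 at 4.45, whereas for Plac8 and Kit all hom libraries lie on one side of all wt libraries.

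The sequences just upstream of these 3 genes are printed because these genes mark the comparison and their promoters differ in base composition. Each run holds the 250 bases before the annotated start, 5′ to 3′ on the gene's own strand, from RefSeq on GRCm38.p6. Capitals mark GGGCGG or its reverse complement CCGCCC, a GC box, and TATAAA was searched on both strands as well.
Mysm1 (chr4:94979101-94979350, minus strand): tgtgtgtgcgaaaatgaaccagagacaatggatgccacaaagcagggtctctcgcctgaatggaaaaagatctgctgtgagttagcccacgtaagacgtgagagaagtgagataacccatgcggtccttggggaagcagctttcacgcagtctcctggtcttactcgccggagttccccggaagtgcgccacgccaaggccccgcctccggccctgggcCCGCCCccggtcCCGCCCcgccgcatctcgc
Plac8 (chr5:100572206-100572455, minus strand): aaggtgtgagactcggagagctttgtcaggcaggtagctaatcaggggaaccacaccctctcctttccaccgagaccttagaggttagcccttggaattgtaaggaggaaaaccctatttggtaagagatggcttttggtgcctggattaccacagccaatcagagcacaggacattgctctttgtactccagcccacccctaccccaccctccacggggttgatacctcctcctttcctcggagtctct
Kit (chr5:75574737-75574986, plus strand): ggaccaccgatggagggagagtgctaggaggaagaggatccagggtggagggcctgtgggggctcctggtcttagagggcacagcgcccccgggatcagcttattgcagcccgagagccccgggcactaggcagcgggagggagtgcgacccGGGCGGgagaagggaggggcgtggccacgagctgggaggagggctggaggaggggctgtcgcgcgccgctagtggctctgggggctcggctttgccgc

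The window of Mysm1 held 19 CpG dinucleotides and 2 GC boxes, that of Plac8 4 CpG and no GC box, and that of Kit 17 CpG and 1 GC box. None of the 3 held TATAAA. Of the genes that rose in hom ESC, 116 had a promoter in the table and 53.4% of these held a GC box, with a median of 14 CpG. Of the genes that fell, 176 had one and 64.8% held a GC box, with a median of 18 CpG. Among 7076 tested genes the share was 61.8% and the median 16, and over all 27025 promoters they were 32.9% and 6. TATAAA stood in 10.3% of the risen, 8.52% of the fallen and 6.51% of all tested genes, and in 13% of all promoters. A match to these letters is a description and not a site of binding.

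Across the arrays 599 of 14502 tested probes differed between hom and wt ESC (limma with the replicate block, adjusted p under 0.05), 4.13% of them, with 271 higher (1.87%) and 328 lower (2.26%). By the brightest probe of each gene, 370 of 8694 genes changed (4.26%), 148 higher (1.7%) and 222 lower (2.55%). Of the 599 probes 28 reached a log2 difference of 1, and of those called without the library labelled hom 1, 73 did. The median size of the difference over the 599 probes was 0.51 in pair 1, 0.61 in pair 2 and 0.60 in pair 3, and each of these probes had the same sign in all 3 pairs. Groups did not overlap for 454 of them, and for 18.9% of all probes tested. Without the library labelled hom 1, 786 probes passed (5.42%), 397 higher (2.74%) and 389 lower (2.68%), or 538 genes (6.19%), 256 higher (2.94%) and 282 lower (3.24%). Of the 786 probes, 407 were among the 599, which is 51.8% of the 786 and 67.9% of the 599. All of the 599 kept their direction, which adds little, since each had the same sign in all 3 pairs and the fits share arrays. The count rests on the block and on single arrays: with no block it was 0 (1748 had an unadjusted p under 0.05), and with the block 2 without hom 2 or without wt 2, 9 without hom 3, 64 without wt 3, 208 without het 2, 254 without wt 1 and 1024 without het 1. With slide as a random block it was 2, and with slide as a fixed term 51. The fixed slide term rests on het 1, the only het array on the wt slide, whose label is in doubt.

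The 15 genes that rose most were taken by their brightest probe and the same direction in all pairs. Spink1, a secreted inhibitor of trypsin-like proteases, had log2 intensities of 7.11, 8.18 and 7.99 in hom, against 6.21, 5.59 and 6.06 in wt. All hom libraries lay above all wt libraries, with hom 1 the lowest of the hom group. It rose by 1.81 ± 0.314 (limma adjusted p = 0.0185), and by 2.29 without the library labelled hom 1. Nnat, the imprinted gene of the membrane proteolipid neuronatin, read 5.58, 5.89 and 6.85 in hom, against 4.58, 4.43 and 5.47 in wt, where it was detected on 1 array. The hom libraries were higher throughout (1.28 ± 0.170, limma adjusted p = 0.00818).

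Both carbonic anhydrase genes on the list rose, that of the cell surface and that of the cytosol. Car4, the membrane-anchored form, read 6.62, 6.15 and 7.66 in hom, against 5.61, 4.83 and 6.53 in wt, a rise of 1.16 ± 0.160 (limma adjusted p = 0.00906). Car2, the cytosolic form, read 5.68, 6.18 and 7.26 in hom, against 4.83, 5.03 and 5.90 in wt, a rise of 1.12 ± 0.138 (limma adjusted p = 0.00604). For both genes the groups overlapped although each hom library exceeded the wt library of its own number, since levels differed between replicate numbers. Car14, another membrane form, was detected on 2 hom arrays and no wt array; it was at least 1.10-fold higher (fitted difference 0.57, adjusted p = 0.0472).

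Pou3f1, a POU factor of the primed epiblast, read 7.92, 6.61 and 8.51 in hom, against 6.93, 6.06 and 6.87 in wt (1.06 ± 0.182, limma adjusted p = 0.0179). The number 2 library was the lowest of both groups, which therefore overlapped. Sp5, a zinc finger target of Wnt signalling, read 5.60, 5.77 and 6.86 in hom, against 4.90, 5.12 and 5.17 in wt, with no overlap and hom 3 well above the others (1.01 ± 0.203). Pea15a, a phosphoprotein that binds ERK kinases, rose by 1.14, Lpar4, a receptor for lysophosphatidic acid, by 1.02, and Ankrd1, a nuclear ankyrin-repeat protein, by 1.02. The other tested probe of Ankrd1 gave 0.42 and did not pass (limma adjusted p = 0.147). Itm2a (1.04), a membrane protein, and Nudt10 (1.02), a hydrolase of inositol pyrophosphates, lay on the X chromosome, as did Lpar4.

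The remaining members were Sprr2k (1.13), of a family of near-identical cornified envelope genes whose signals a probe may mix, Gbp2 (1.05), an interferon-induced GTPase, and Lyz2 (1.05), the lysozyme of myeloid cells. The other tested probe of Sprr2k gave 1.10 and did not pass (limma adjusted p = 0.0619). Lyz2 read 6.15, 7.93 and 4.94 in hom, against 4.59, 6.51 and 4.79 in wt, so the pair numbered 3 hardly differed. Of the 15 rises, 13 passed without the library labelled hom 1, the exceptions being Gbp2 (adjusted p = 0.0836) and Lyz2 (0.0664). Groups did not overlap for 8 of the 15, against 18.3% of all genes, although these genes were chosen for large changes. In 9 of these rises and 6 of the 15 largest falls the pair numbered 1 had the smallest difference, and over the 599 probes it was the smallest in 281 and the largest in 156. Examples are Ankrd1 (0.0038 in pair 1, against 1.65 and 1.41 in the other pairs) and Sprr2k (0.16, against 1.85 and 1.38).

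**Figure D2:**
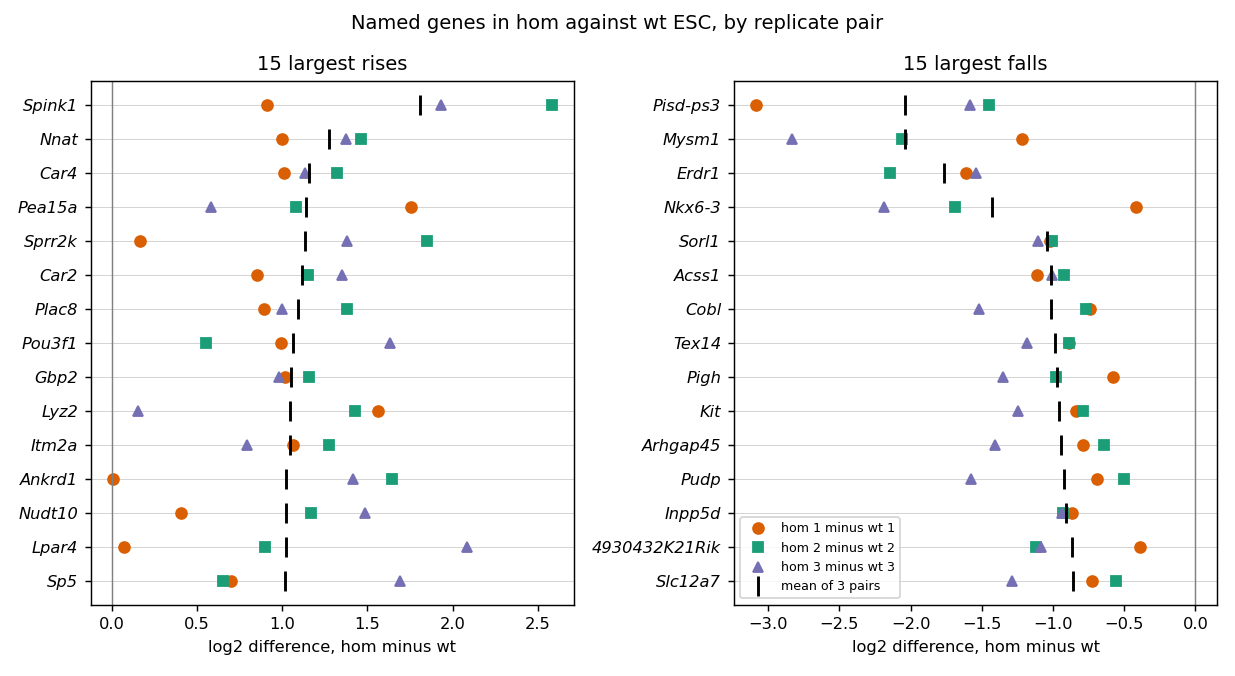
Log2 difference of hom minus wt (horizontal axis) for the 15 largest rises (left) and the 15 largest falls (right); symbols are the 3 replicate pairs and the black tick is their mean. The pair with the library labelled hom 1 has the smallest difference in 9 of the 15 rises and 6 of the 15 falls; a same direction in all pairs was part of how the genes were chosen.

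Among the 15 largest falls the targeted gene came second. Pisd-ps3, a pseudogene of a phosphatidylserine decarboxylase, read 5.94, 6.18 and 6.47 in hom, against 9.02, 7.63 and 8.05 in wt (−2.04 ± 0.245, limma adjusted p = 0.00548). Copies of it are near-identical, so the probe may read more than 1 locus. Erdr1, named for erythroid differentiation, read 10.54, 9.92 and 10.54 in hom, against 12.15, 12.07 and 12.08 in wt (−1.76 ± 0.185, limma adjusted p = 0.00318), and its other tested probe gave −2.30. Wt libraries of Erdr1 lay within 0.1 of each other and hom libraries were all lower, with the caution that Erdr1 has near-identical copies as well. Nkx6-3, a homeobox gene, read 6.99, 6.16 and 5.17 in hom, against 7.41, 7.85 and 7.35 in wt, with hom 1 close to wt and hom 3 farthest away (−1.43 ± 0.250, limma adjusted p = 0.0191). It differed by −1.74 when hom 1 was left out.

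Sorl1, a sorting receptor, fell by 1.04 ± 0.157 and Acss1, a mitochondrial acetyl-CoA synthetase, by 1.01 ± 0.136 on the log2 scale. Cobl, which nucleates actin filaments, fell by 1.01, with 7.94, 7.88 and 6.92 in hom, against 8.69, 8.65 and 8.44 in wt. Inpp5d, the lipid phosphatase SHIP of blood cell signalling, read 5.44, 5.01 and 5.40 in hom, against 6.31, 5.94 and 6.34 in wt (−0.91 ± 0.147, limma adjusted p = 0.0154), and the 3 pairs differed by −0.87, −0.93 and −0.94. Arhgap45, a GTPase-activating protein, fell by 0.95 and Slc12a7, a potassium and chloride cotransporter, by 0.86. Tex14 (−0.99), a gene of germ cell bridges, and Pudp (−0.93), a phosphatase of pseudouridine monophosphate, also fell, as did 4930432K21Rik (−0.87). Pigh (−0.97), a subunit of the first enzyme of GPI anchor synthesis, fell by its brightest probe, whereas its other tested probe gave 0.26. All 15 falls passed without the library labelled hom 1, and the groups did not overlap for 14 of them, Acss1 being the exception (18.3% of all genes, with the same choice of large changes).

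Leaving out the library labelled hom 1 brought other genes to the top. Of the 10 largest rises in that fit, 6 lay on the X chromosome, and 6 of the 10 were among the 15 named above. Xlr4a, of an X-linked family of near-identical lymphocyte and germ cell genes, read 8.81 and 8.58 in hom 2 and hom 3 and 4.97 in the library labelled hom 1. It read 9.06 in the library labelled het 1 and 5.07 and 4.51 in het 2 and het 3, against 4.80, 4.45 and 4.29 in wt, where it was not above background. It was at least 13.6-fold higher without the library labelled hom 1 (limma adjusted p = 0.00579) and at least 5.75-fold with it (adjusted p = 0.121). Thus hom 2, hom 3 and the library labelled het 1 were high for Xlr4a and the other 6 libraries low.

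Heph, an X-linked ferroxidase, read 5.66 and 6.78 in hom 2 and hom 3 and 6.44 in the library labelled het 1. The library labelled hom 1 read 5.02 for Heph, against 5.17, 4.32 and 4.70 in wt. Heph was thus also higher in hom 2, hom 3 and the library labelled het 1 than in hom 1 and wt. It rose by 1.89 ± 0.251 without hom 1 (limma adjusted p = 0.00579; 0.133 with it). Usp26, an X-linked deubiquitinase gene of the testis, rose by 1.75 in the same fit (adjusted p = 0.00579; 0.112 with hom 1). Slc38a5, an X-linked glutamine transporter, was at least 2.08-fold higher without hom 1 (adjusted p = 0.0291; 0.197 with it). Of the 10 largest falls in that fit 8 were among those named above. The others were Bmf, a pro-apoptotic BH3-only protein, at least 1.72-fold lower and not above background on hom 2 or hom 3, and Gipc1, a PDZ adaptor protein (−1.06; −0.63 with hom 1, adjusted p = 0.120).

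The X chromosome showed the split as a whole. Over the brighter genes (mean log2 intensity 7 or more), the median difference from the wt library of the same number was −0.0057 for hom 1, 0.27 for hom 2 and 0.37 for hom 3. For het 1, het 2 and het 3 it was 0.28, 0.010 and 0.062. Of 281 X genes tested 23 rose with all libraries (8.19%), against 125 of 8392 autosomal genes (1.49%). Without the library labelled hom 1, 65 rose (23.1%), against 191 autosomal genes (2.28%). Eif2s3y, a Y-linked initiation factor gene, was detected on hom 1 (5.45), het 2 (5.41) and het 3 (5.70) and on none of the other 6 arrays. Xist was detected on none, and neither was the Y-linked Kdm5d. Uty, also Y-linked, was detected on 4 arrays and did not show this split. It read 4.99, 4.90 and 4.44 in hom 1 to 3, 4.90, 4.93 and 4.88 in het 1 to 3, and 4.68, 4.60 and 4.91 in wt 1 to 3. Hom 1 and het 1 were also the most alike pair of ESC arrays (r = 0.993 across probes, 1 pair of arrays, a description only). The part of X dosage, sex or label in the X-linked rises was not tested.

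On chromosome 8 genes were lower in all hom libraries. The median difference was −0.29, −0.21 and −0.092 in hom pairs 1 to 3 and −0.26, −0.23 and −0.15 in het pairs 1 to 3. Of 476 genes tested on it 48 fell (10.1%) and 0 rose (by the same limma test), against 172 of 7916 genes on other autosomes that fell (2.17%). With hom 1 left out it was 38 (7.98%), against 242 (3.06%). Nkx6-3 and 4930432K21Rik of the largest falls, and the list members Mvd, Lamp1, Timm44, Mcm5 and Cdt1 below, lie on chromosome 8.

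**Figure D3:**
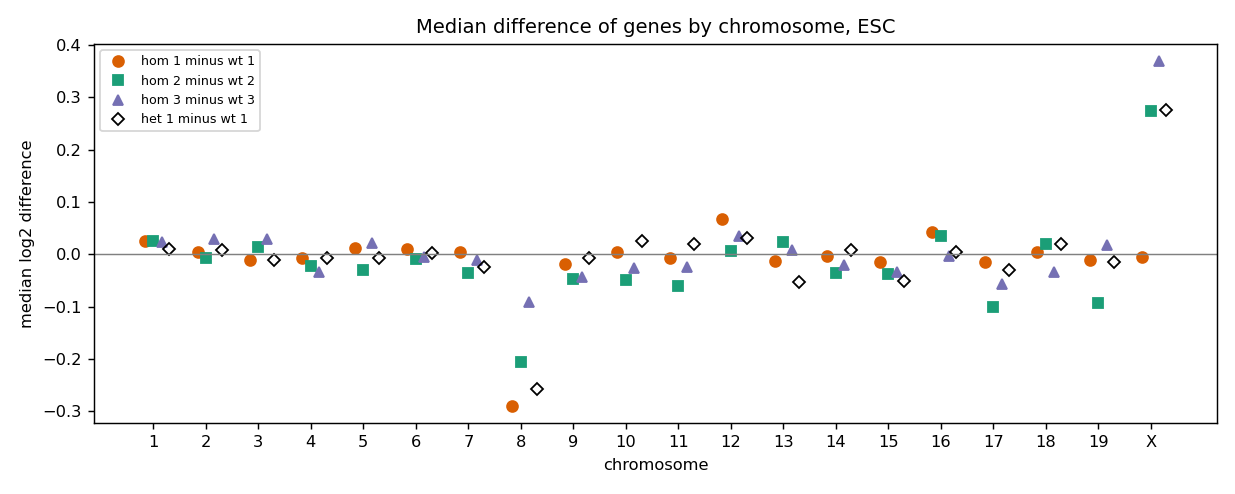
Median log2 difference (vertical axis) of genes whose mean log2 intensity was 7 or more, by chromosome (horizontal axis), for hom 1, hom 2, hom 3 and het 1, each minus the wt library of its number. On X, hom 2 (0.27), hom 3 (0.37) and het 1 (0.28) are high and hom 1 (−0.0057) is not; on chromosome 8 all are low.

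Of 29 naive pluripotency genes tested, 5 fell and 0 rose in hom ESC, against 2.55% of all genes lower. The list median was −0.19 and 20 of 29 values were negative, against −0.013 and 4533 of 8694 over all genes tested. Esrrb, an orphan nuclear receptor of the naive network, read 12.14, 11.94 and 11.49 in hom and 12.44, 12.17 and 12.25 in het, against 12.41, 12.60 and 12.51 in wt (−0.65 ± 0.119, limma adjusted p = 0.0221). Tbx3, a T-box factor of self-renewal, read 7.80, 7.89 and 7.28 in hom, against 7.99, 8.77 and 8.06 in wt (−0.61 ± 0.141, limma adjusted p = 0.0382). For both genes hom lay below wt throughout and the pair with the library labelled hom 1 had the smallest difference.

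Klf5, a Krüppel-like factor, read 11.31, 11.34 and 11.64 in hom, against 11.74, 12.15 and 11.88 in wt (−0.49, limma adjusted p = 0.0395). Nr5a2, a nuclear receptor upstream of Pou5f1, read 6.13, 6.38 and 5.93 in hom, against 7.10, 6.85 and 6.32 in wt (−0.61, adjusted p = 0.0448), with overlap. Tfcp2l1, a CP2-family factor, was the fifth (−0.45). When the library labelled hom 1 was left out Klf5 (adjusted p = 0.0677), Nr5a2 (0.108) and Tfcp2l1 (0.0573) did not pass, and 3 list members did. The core factors did not pass: Pou5f1 differed by 0.24 (adjusted p = 0.238), Sox2 by −0.11 (0.602) and Nanog by −0.19 (0.392), and Klf4 differed by −0.51 (0.0543).

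Of 13 primed epiblast and streak genes tested 3 rose (Pou3f1, Sp5 and Car14) and 0 fell, against 1.7% of all genes higher, with a median of 0.25. Otx2, the homeobox gene of the epiblast, differed by 0.083 (adjusted p = 0.822), and Fgf5 was above background on 1 ESC array, that of hom 3. Without hom 1, 2 rose, Car14 did not pass (0.0731) and Wnt3a, a Wnt ligand, fell (−0.83, adjusted p = 0.0324; 0.0528 with hom 1). Of 16 Nodal, BMP and FGF outputs 0 passed; without hom 1 Lefty1, a Nodal inhibitor, and Id3, a BMP target, rose (0.45 and 0.83).

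**Figure D4:**
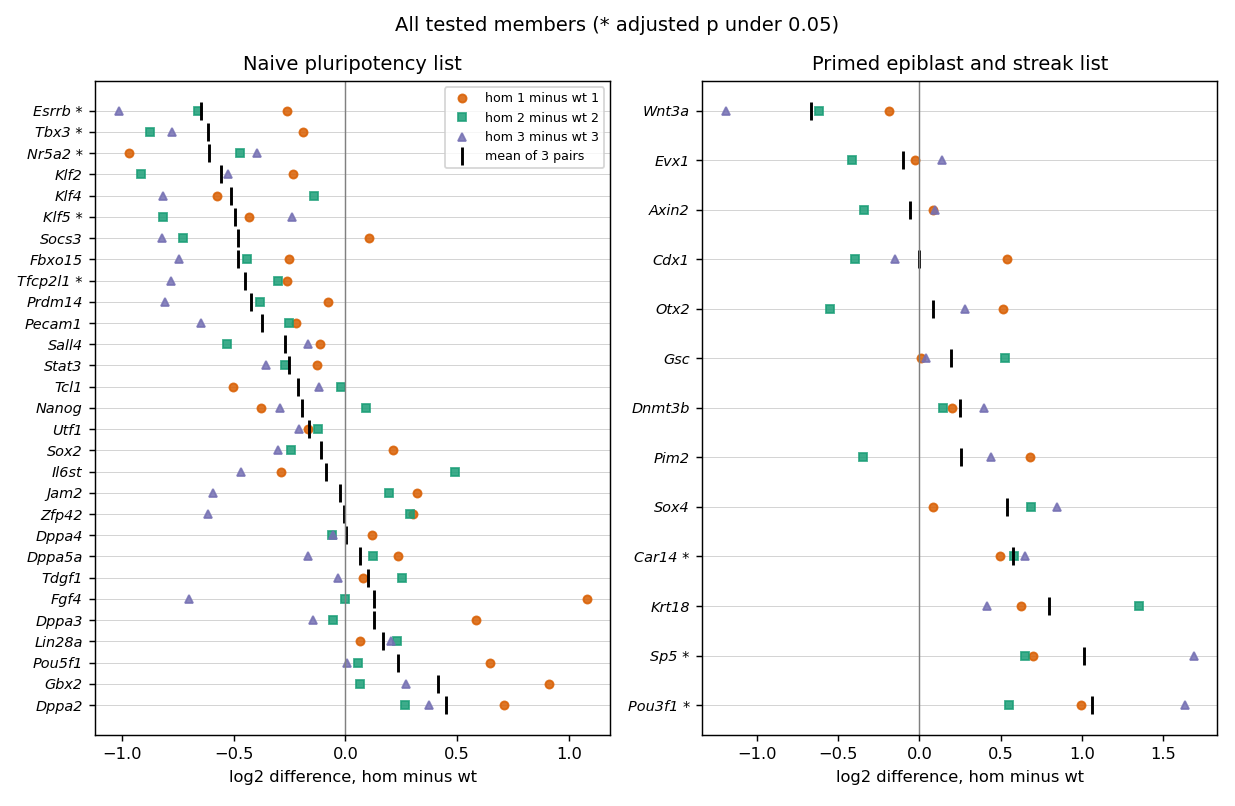
Log2 difference of hom minus wt (horizontal axis) for every tested gene of the naive pluripotency list (left, 29 genes) and of the primed epiblast and streak list (right, 13 genes); symbols are the 3 replicate pairs, ticks their mean, and an asterisk marks an adjusted p under 0.05. The asterisks stand at 5 naive genes, all below 0, and at 3 primed genes, all above 0.

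Other lineage lists held 0 to 3 calls each, against 1.7% of all genes higher and 2.55% lower. Of 21 primitive endoderm genes Spink1 and Car4 rose and Lama1, a laminin chain of basement membranes, fell (−0.63, adjusted p = 0.0438), while the defining factor Gata6 differed by −0.19 (adjusted p = 0.644) and the median was 0.13. None of 13 trophoblast genes passed, nor did the 1 tested gene of the 2-cell-like state. Without hom 1, 1 trophoblast gene fell. Of 11 neural progenitor genes Nnat alone passed. Of 18 blood and endothelial genes Plac8 and Etv2 rose and Kit fell, Plac8 and Kit being marker genes chosen for this comparison. Etv2, an ETS factor of blood and vessel progenitors, read 8.04, 7.93 and 8.55 in hom and 7.80, 7.45 and 7.70 in het, against 7.56, 7.42 and 7.45 in wt (0.69 ± 0.137, limma adjusted p = 0.0243). Hom and wt did not overlap, and hom 3 was the highest.

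Of 33 imprinted genes tested Nnat and Mest, an imprinted hydrolase gene, rose and 0 fell, against 1.7% of all genes higher and 2.55% lower. Mest read 7.37, 7.26 and 7.87 in hom, against 6.81, 6.44 and 7.07 in wt (0.73 ± 0.115, limma adjusted p = 0.0152). Without the library labelled hom 1, Ndn, the gene of necdin, rose as well (0.70), and Phlda2 (−0.90), Slc22a18 (−0.94) and Dhcr7 (−0.71) fell. Of 17 germ cell genes known to be silenced by DNA methylation Taf7l, an X-linked relative of a TFIID subunit, rose and Tex14 fell. Taf7l, below background on all wt arrays, was at least 1.34-fold higher, and without hom 1 the X-linked Xlr4a and Xlr5a rose too.

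The list of H2A ubiquitin ligases and deubiquitinases, which also held a proteasomal deubiquitinase, had 1 call. Beside the share over all genes (1.7% higher, 2.55% lower), that says little about the list. Of 31 H2A ubiquitin ligase and deubiquitinase genes other than Mysm1, Usp21, a deubiquitinase of H2A, fell (−0.49 ± 0.127, adjusted p = 0.0497) and 0 rose, with a median of −0.12. It read 7.28, 6.77 and 7.08 in hom, against 7.67, 7.56 and 7.37 in wt, and missed the threshold without the library labelled hom 1 (0.0516), where Psmd14, a proteasomal deubiquitinase, rose (0.59). Of 9 genes of PRC2, the complex of H3K27 methylation, Rbbp7, an X-linked histone-binding subunit, rose (0.72, limma adjusted p = 0.0489, or 0.0929 without hom 1). The other tested probes of Rbbp7 gave 0.71, 0.76 and 0.54 and did not pass (limma adjusted p = 0.0889, 0.0546 and 0.0869). The catalytic subunit gene Ezh2 differed by −0.10 (0.511). Of 17 DNA methylation writers and erasers Tet1, a 5-methylcytosine dioxygenase, Trim28, a corepressor, and Mbd2, a methyl-CpG reader, fell and 0 rose, against 2.55% of all genes lower. Tet1 read 9.51, 9.19 and 9.47 in hom, against 10.07, 9.70 and 9.98 in wt, and its pairs differed by −0.56, −0.51 and −0.52 (−0.53 ± 0.106, limma adjusted p = 0.0259). Trim28 fell by 0.34 and Mbd2 by 0.50, the last not without hom 1 (adjusted p = 0.0726). Of 14 tested neighbours of Mysm1 on chromosome 4, 0 passed and the median was 0.014. Without hom 1, 1 of these neighbours fell.

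Housekeeping lists gave 0 to 4 calls each, against 2.55% of all genes lower and 1.7% higher. Of 39 S phase and replication genes Lig1, the replicative DNA ligase (−0.50), the helicase subunits Mcm6 (−0.39) and Mcm5 (−0.36), and the licensing factor Cdt1 (−0.31) fell and 0 rose, with a median of −0.085. Lig1 read 9.71, 9.36 and 9.51 in hom, against 10.18, 9.79 and 10.11 in wt. Its other tested probes did not pass (−0.037, limma adjusted p = 0.904, and −0.40, 0.0848). Those of Mcm6 did not pass either (−0.34, limma adjusted p = 0.0597, and −0.24, 0.201). Without hom 1 Cdt1 did not pass (adjusted p = 0.0693) and 6 list members fell. Of 19 cholesterol and lipid synthesis genes Mvd (−0.57), of the mevalonate pathway, and the desaturases Scd1 (−0.61) and Scd2 (−0.61) fell, Scd2 not without hom 1 (adjusted p = 0.0982). Of 40 autophagy and lysosome genes Ulk1, the kinase that starts autophagy, and Lamp1 (−0.41), a lysosomal membrane protein, fell, Lamp1 not without hom 1 (0.0890). Ulk1 read 7.48, 7.40 and 7.20 in hom and 7.72, 7.66 and 7.71 in het, against 8.24, 8.23 and 8.08 in wt (−0.82 ± 0.110, limma adjusted p = 0.00818), and all het libraries lay between the hom and the wt libraries.

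Over all genes tested 1.7% rose and 2.55% fell. Of 27 mitochondrial import genes Timm21 (0.46), a translocase subunit, and Romo1 (0.48), an inner membrane protein, rose and Timm44 (−0.43), of the import motor, fell. With hom 1 left out, 5 rose and 0 fell, Timm44 having an adjusted p of 0.0899. Of 52 cytosolic ribosomal protein genes Rpl30 rose (0.50) and of 35 p53 targets Ccng1, cyclin G1, did (0.64 ± 0.103, limma adjusted p = 0.0152). The other tested probe of Rpl30 gave 0.48 and did not pass (limma adjusted p = 0.0812). Beside the 1.7% of all genes that rose, a single call in lists of this size says little about the list. Of 18 immediate early genes Gadd45g, a stress-induced gene, rose (0.78 ± 0.126, adjusted p = 0.0155), with 10.20, 10.06 and 9.73 in hom, against 9.51, 9.03 and 9.11 in wt. Of 22 interferon response genes Gbp2 alone passed, and 0 of 14 MHC class I, 38 glycolysis and 29 stress response genes did. Without hom 1, 4 glycolysis genes and 1 stress response gene fell, against 3.24% of all genes lower.

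Of 19 erythroid and iron genes 1 rose, against 1.7% of all genes. Without hom 1, 3 rose and 1 fell, against 2.94% and 3.24% of all genes. The gene that rose with all libraries was Slc40a1, the iron exporter ferroportin. It read 6.88, 8.36 and 8.62 in hom and 7.13, 8.10 and 8.92 in het, against 5.88, 7.20 and 7.76 in wt, and each hom library exceeded the wt library of its number by 0.86 to 1.16 although the groups overlapped (1.01 ± 0.128, limma adjusted p = 0.00715). Of 31 feeder fibroblast and matrix genes Tagln, an actin-binding protein of smooth muscle (0.85), and Timp3, an inhibitor of matrix proteases (0.65), rose, against 1.7% of all genes higher, with a median of 0.18 and 24 of 31 positive (4161 of 8694 over all genes). Without hom 1 Tagln did not pass (adjusted p = 0.0566), but 3 list members rose, against 2.94% of all genes, and the median was 0.25. Tagln and Timp3 were highest in the number 2 library of each group, as Thy1 was. Of 5 macrophage genes tested Lyz2 rose. Fewer cells of a type and less RNA per cell cannot be told apart in such bulk samples, and the part of feeder cells in these rises was not tested.

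Het ESC of the same fit share the wt arrays with the comparison, so their values are given beside it and not as support. The het values include the library labelled het 1, whose label is in doubt. In het against wt 37 probes passed (0.255%), 28 higher (0.193%) and 9 lower (0.0621%). Slc40a1 differed from wt by 1.01 in hom and 1.11 in het, Car4 by 1.16 in both, Nnat by 1.28 in hom and 1.15 in het, and Erdr1 by −1.76 in hom and −1.64 in het. Plac8 differed by 1.09 in hom and 0.60 in het, Kit by −0.96 in hom and −0.53 in het, and Spink1 by 1.81 in hom and 0.88 in het. The difference of hom against het itself passed for 0 of 14502 probes (1573 at an unadjusted p under 0.05 in limma). That count was 9 without the library labelled het 1 and 295 without those labelled hom 1 and het 1. With all 9 ESC arrays the smallest limma adjusted p of hom against het, 0.438, was shared by several genes, among them Plac8. The 5 genes with the smallest unadjusted p were Ctnna1, the gene of alpha-catenin (−0.42), Grina (−0.61), Mgp, a matrix protein (−0.55), Mup6 (0.65), of a family of near-identical urinary protein genes, and Eef1akmt1, a lysine methyltransferase gene (0.51).

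Whether the changes in ESC differed from those in MEF was tested as an interaction over all 20 arrays. Of 17067 probes 1 passed (0.00586%), that of Car2, for which hom minus wt was 1.15 in ESC and 0.031 in MEF, a difference of 1.12 ± 0.150 (limma adjusted p = 0.0313). The call held in 11 of 29 alternatives, and the other processing settings are given below. It was lost without any 1 of the 7 hom and wt MEF arrays (limma adjusted p 0.0512 to 0.214), and without ESC hom 2, hom 3, wt 2 or wt 3 (0.178 to 0.231). The array of MEF hom 3 stood apart in raw signal (median 95.7), and the value without it was 0.0512. Plac8 differed by 1.06 in ESC and −0.89 in MEF, but the difference of 1.96 did not pass (adjusted p = 0.107). Lgals3, the gene of galectin 3 (0.45 in ESC, −0.70 in MEF), Sec63, a translocon subunit (0.92 and −0.18 in that order), and Inpp5d (−0.95 in ESC, −0.033 in MEF) had adjusted p of 0.0812, 0.104 and 0.133. Mysm1 differed by −2.05 in ESC and by −2.03 in MEF (difference −0.017, adjusted p = 0.997). In the same fit 34 probes (0.199%) passed for hom against wt in ESC and 0 in MEF (720 at an unadjusted p under 0.05).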

How the data were processed

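The non-normalized table deposited by the authors holds, per the file headers, each probe's mean bead intensity, a detection p-value and bead counts, and the deposited series matrix holds intensities normalized by the authors. BeadStudio and limma are named without versions in the submitters' processing notes. The raw intensities of the 9 ESC arrays were background-corrected with neqc (offset 16, control signal inferred from the detection p-value), quantile normalized together and log2 transformed in R 4.3.3 with limma 3.58.1. Probes detected (p under 0.01) on 3 or more ESC arrays were tested (14502 probes, 8694 genes), with genotype and replicate number as terms (4 residual degrees of freedom, 3 without hom 1), eBayes with a trend and Benjamini-Hochberg adjustment at 0.05. Of 45281 probes 34885 matched 1 gene, 18 several and 10378 none in the platform annotation.

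The labels do not say what a shared replicate number stands for, but all 9 pairs of arrays with the same number and different genotype correlated after removal of group means (0.367 to 0.773, against −0.622 to 0.204 for different numbers), so the number was kept as a block. The interaction with MEF used 20 arrays normalized together and 12 residual degrees of freedom. Where a gene was at background throughout a group, its fold is a bound, with that group set to the lowest detected signal of each array or to its own value if higher. Named genes were Mysm1, Plac8 and Kit, the 15 largest rises and falls with the same direction in every pair, 10 and 10 without hom 1, up to 4 members of a list by smallest p, and 5 in each further comparison; other list members and markers were named after their values were seen. The members, 28 gene lists and tests were chosen with earlier results of these data known. The fit was tested on simulated data. Promoters (52 of 75 named genes matched) came from RefSeq, GRCm38.p6. Alternatives covered background, normalization, filter, slide, weights, thresholds and left-out arrays.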

Additional observations from a re-analysis of the deposited data

Results flagged for a closer look

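For Car2, the cytosolic carbonic anhydrase, the difference between hom and wt was larger in ESC than in MEF, by 1.12 on the log2 scale (limma interaction over 20 arrays, adjusted p = 0.0313). Hom exceeded wt in 3 of 3 ESC pairs, but a same direction in all pairs was part of how the largest rises, Car2 among them, were chosen. It does not bear on the difference from MEF. Over the alternatives tried the difference ran from 0.65 to 1.24 and its adjusted p from 0.00391 to 0.928. It passed in 11 of 29 alternatives. It missed the threshold without ESC hom 2 (0.186), hom 3 (0.178), wt 2 (0.231) or wt 3 (0.216), and without any 1 of the 7 hom and wt MEF arrays (0.0512 to 0.214). It was missed too with no replicate block, no background correction, cyclic loess, median scaling or the series matrix. The same held with all probes kept or slide as a fixed term (0.0718 to 0.928 over these 7 settings).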

How the results depend on the processing

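The replicate block and single arrays carried most of the count. Of 599 probes changed in hom against wt ESC (271 higher, 328 lower), no replicate block left 0 higher and 0 lower, 0 in all, and Mysm1 at −2.04 with an adjusted p of 0.297. Leaving out 1 array at a time gave 2 to 1024 probes (0 to 490 higher, 2 to 534 lower) and −2.84 to −1.46 for Mysm1. Without hom 1 and het 1 together it was 1097 (571 higher, 526 lower). Slide as a fixed term gave 51 (40 and 11) and as a random block 2 (0 and 2). Mysm1 stood at −5.00 (limma adjusted p = 0.000797) with the fixed term and −3.83 (0.114) in the random block. No slide held both hom and wt, and het 1 was the only het array on the wt slide. The fixed slide term therefore rests on het 1, whose label is in doubt, and these values do not correct for slide alone. Median scaling gave 334 (179 and 155), array weights 1081 (504 and 577), eBayes without a trend 69 (34 and 35), an adjusted p under 0.01 14 (6 and 8) and a log2 change of at least 1 28 (18 and 10). Mysm1 missed the threshold also with 20 arrays normalized together (−2.05, adjusted p = 0.0507), without a trend (−2.04, 0.0900) and with robust eBayes (−2.04, 0.221); with detection asked on all 9 ESC arrays it was not tested. The cause was not tested for any of these.

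Hom against het ESC gave 0 probes except 8 with slide as a fixed term, 9 without het 1 and 295 without hom 1 and het 1. For the ESC effect against the MEF effect the count of 1 became 7 with normexp and an offset of 50, 17 with slide as a random block, 302 with array weights and 23 without hom 1 and het 1. It was 0 with no replicate block, no background correction, cyclic loess, median scaling, slide as a fixed term, the series matrix, all probes kept or an adjusted p under 0.01, and 0 to 14 when 1 array was left out, MEF arrays included (chosen after seeing the data). The 6 arrays alone and detection on all 9 were not run for it.

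Of 65 named genes that passed, 64 kept their direction under all alternatives run. This adds little, since the alternatives reuse the same arrays and many of these genes were chosen for the same direction in all pairs. Gbp2 turned to −0.17 (adjusted p = 0.825) with slide as a fixed term. Of the 65, 0 passed with no replicate block, 1 without hom 2, 1 without wt 2 and 6 without hom 3. With slide as a random block 1 passed, as a fixed term 5, and with eBayes without a trend 21. The number was 17 without wt 3, 35 without het 2, 42 without wt 1 and 52 without hom 1. Under the other background, scaling and filter settings 46 to 63 passed. Dim probes near background are compressed by the offset, so their differences can be understated.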
